A study of Mus musculus with 6 samples.

Results

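Cebpd, Slc10a6, Gadd45g and Map3k6 are 4 genes grouped here under the stress response. The authors placed them in their list of features differing between refed and fasted muscle. They were taken by symbol from that list of 470 array features, of which 134 carry a gene symbol, and each has 1 feature among the 41345 of the deposited table. The muscle was tibialis anterior, a mostly fast-twitch muscle at the front of the lower leg, from male C57Bl/6 mice of 18 weeks. Both groups lost access to chow at 1800 hr. In the fasted group (3 arrays, replicate numbers 1, 3 and 5) the fast went on until the muscle was removed. In the refed group (3 arrays, numbers 7, 9 and 11) food was given back for 30 minutes at about 0800 hr and then withheld for 4 hr. No transgene, drug or mutation is named for either group. Whether the 3 arrays of a group stand for 3 separate mice is not said in the labels, so the spread between arrays may be partly technical.

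Fasting raises glucocorticoid hormone in mice, and in skeletal muscle the hormone-bound receptor switches on genes that slow growth and favour protein breakdown. Stress also reaches the cell through kinase cascades, in which a MAP3K activates MAP2 kinases and these activate p38 and JNK. Cebpd, Gadd45g and Map3k6 stand at different points of these routes. Slc10a6 is grouped with them here and is also in the list of glucocorticoid response genes used below. A place in these routes was not tested for any of the 4 genes. Cebpd codes for C/EBP delta, a leucine zipper transcription factor induced by glucocorticoids and inflammatory cytokines. Slc10a6 codes for SOAT, a sodium-dependent carrier that brings sulfated steroids into cells. Gadd45g codes for a small GADD45 protein that binds MAP3K4 and so can activate p38 and JNK. Map3k6 codes for ASK2, a MAP3K that works in a complex with its relative ASK1.

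RefSeq promoter windows on GRCm38.p6 were matched for 3 of the 4 genes, Gadd45g, Map3k6 and Slc10a6, and there is no entry for Cebpd. Each window ran from 250 bases before an annotated start to 50 bases after it, and 8 motifs were searched on both strands. For Map3k6 this start lies inside the gene. Its 250 bases are chr4:133240568-133240817, while the gene runs from 133237979 to 133252929 on the plus strand. The bases before the first position of Map3k6 were thus not searched. The 250 bases before the start are shown for the pair of genes that held a match, read 5′ to 3′ on the gene's own strand, with the match in capitals. For Gadd45g (chr13:51846425-51846674, plus strand) the capitals mark a TATA box, and for Slc10a6 (chr5:103629404-103629653, minus strand) the 6-base core of a glucocorticoid receptor site.
Gadd45g: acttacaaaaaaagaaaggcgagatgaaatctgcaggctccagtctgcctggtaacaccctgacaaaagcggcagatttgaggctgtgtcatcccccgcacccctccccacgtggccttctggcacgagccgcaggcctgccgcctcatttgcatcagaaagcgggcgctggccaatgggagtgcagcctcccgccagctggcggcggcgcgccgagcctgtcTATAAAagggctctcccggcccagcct
Slc10a6: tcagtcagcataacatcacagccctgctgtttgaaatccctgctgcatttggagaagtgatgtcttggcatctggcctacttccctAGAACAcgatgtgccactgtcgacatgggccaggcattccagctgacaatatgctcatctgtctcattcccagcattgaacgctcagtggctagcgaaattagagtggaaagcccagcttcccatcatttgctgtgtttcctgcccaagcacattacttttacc

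The receptor's 6-base core AGAACA lay at positions -164 to -159 of Slc10a6, counted from the start. It was found in 19.0% of the 32851 promoter windows in the RefSeq table, so it is a common run of letters. The TATA box TATAAA lay at positions -27 to -22 of Gadd45g, and 13.6% of all windows held one. None of the 3 windows held the receptor's full palindrome, which is AGAACA and TGTTCT with 3 bases between them (0.00913% of windows), and every palindrome also contains the core. None held the STAT motif TTCNNNGAA (8.3%), the C/EBP motif TTGCGCAA (0.183%), the cAMP response motif TGACGTCA (1.79%), the AP-1 motif TGANTCA (7.81%) or the FoxO motif TGTTTAC (3.65%). A match describes letters in a window and is not a shown binding site.

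All 4 genes had lower signal in refed than in fasted muscle, by 1.53-fold for Map3k6 and Slc10a6, 1.89-fold for Gadd45g and 2.06-fold for Cebpd. The mean log2 signal of the 4 was 7.39 ± 0.34 on fasted and 6.59 ± 0.13 on refed arrays (SD, n = 3). The genes were chosen from a list made on this same contrast, so their differences are described here and carry no test. For each of the 4, every refed array was below every fasted array. Over the whole table this held for 2076 features, or 5.02%, and 878 features (2.12%) were lower by at least 1.5-fold. Both held for 395 features (0.955%). In a piece of whole muscle, fewer cells of a type and less RNA per cell cannot be told apart.

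The limma test across all features, which serves here only as background, had an adjusted p under 0.05 for 0 of 41345 features (0%). Without adjustment, p was under 0.05 for 1151 features lower in refed muscle (2.78%) and for 858 higher ones, and the model without variance moderation also called 0 at the adjusted threshold. Over all features the median difference was 0.0005 on the log2 scale, and 95% of differences lay between -0.55 and 0.45. The array medians lay between 5.02 and 5.06. All fasted arrays have lower replicate numbers than all refed arrays. The labels do not say whether these numbers give an order of processing, and an effect of such an order and of the meal cannot be told apart.

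**Figure D1:**
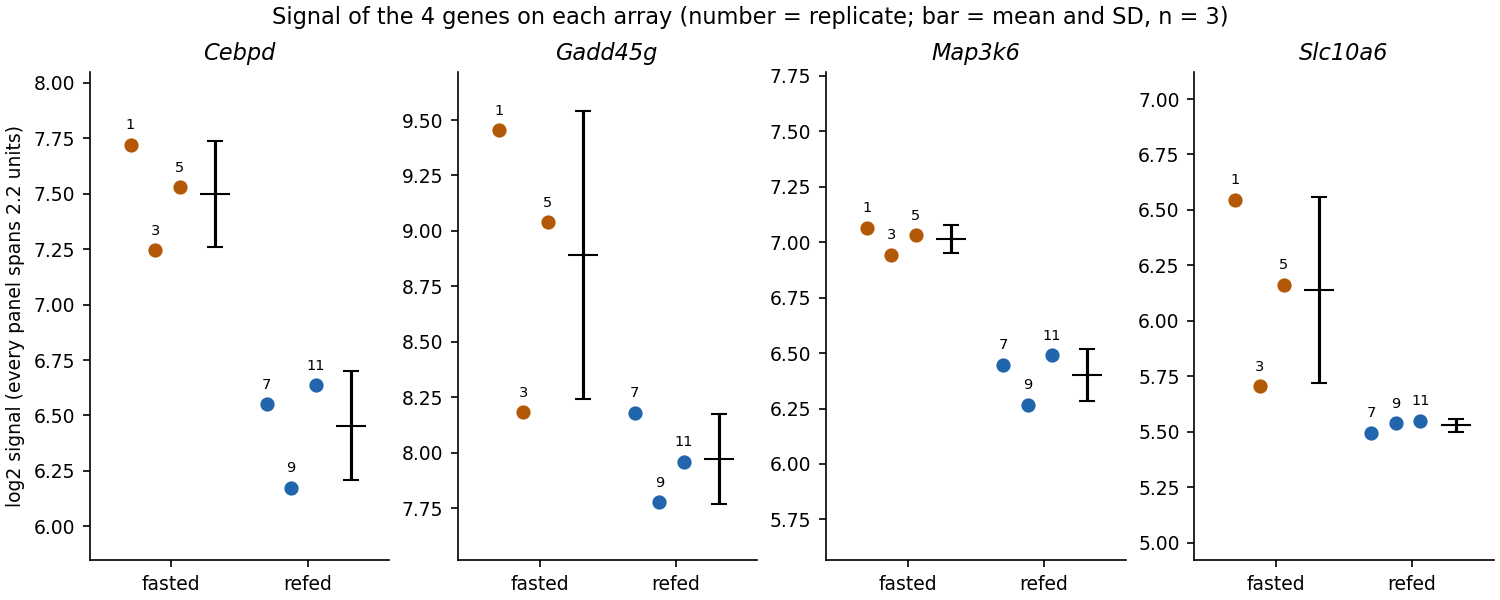
Log2 signal of each gene (panels, each spanning the same range of log2 units) on the 3 fasted and 3 refed arrays, with points numbered by replicate and bars for the mean and SD. Cebpd and Map3k6 have a wide gap between the groups, while in Gadd45g the lowest fasted array, 8.182, almost touches the highest refed array, 8.180.

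Cebpd, the hormone-induced transcription factor, read 7.72, 7.24 and 7.53 on fasted arrays 1, 3 and 5, and 6.55, 6.18 and 6.64 on refed arrays 7, 9 and 11 (log2 signal). Fasted 1 was the highest and refed 9 the lowest, and the groups were separated by a gap of 0.61 between the lowest fasted and the highest refed array. The group means were 7.50 ± 0.24 and 6.45 ± 0.25 (SD, n = 3), a difference of -1.04 (SE 0.20). Against the fasted mean, single refed arrays were 1.82-fold to 2.50-fold lower. The spread was about the same in both groups, and the difference was 4.31 times the pooled SD. Of all features, 140 (0.339%) had a lower difference than Cebpd, on the refed-minus-fasted scale.

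Slc10a6, the steroid sulfate carrier, read 6.55, 5.71 and 6.16 on fasted arrays 1, 3 and 5, and 5.50, 5.54 and 5.55 on refed arrays 7, 9 and 11. The fasted arrays were spread over 0.84 log2 units, while the refed arrays lay within 0.054 of each other. The gap between the groups was 0.16. The means were 6.14 ± 0.42 and 5.53 ± 0.03 (SD, n = 3), a difference of -0.61 (SE 0.24), or 2.05 times the pooled SD. The fasted SD was 14.7 times the refed one, and only 2.83% of all features had a smaller SD in refed muscle. No detection call was used here, and whether the refed level stands above the array's background was not tested. Without fasted replicate 1 the difference of Slc10a6 was -0.41 in place of -0.61, over 1.5 times smaller.

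Gadd45g, the GADD45 protein upstream of p38 and JNK, read 9.45, 8.18 and 9.04 on fasted arrays 1, 3 and 5, and 8.18, 7.78 and 7.96 on refed arrays 7, 9 and 11. Fasted 3 and refed 7 were nearly equal, with a gap of 0.0023 log2 units. The separation of the groups for Gadd45g thus rests on a difference far below the spread within either group. The means were 8.89 ± 0.65 and 7.97 ± 0.20 (SD, n = 3), a difference of -0.92 (SE 0.39), which is 1.92 times the pooled SD. The fasted SD was 3.21 times the refed one, and 96.3% of all features had a smaller SD in fasted muscle. Leaving out 1 array at a time, the difference ranged from -1.27 without fasted replicate 3 to -0.64 without fasted replicate 1.

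Map3k6, the kinase ASK2, read 7.07, 6.94 and 7.03 on fasted arrays 1, 3 and 5, and 6.45, 6.27 and 6.49 on refed arrays 7, 9 and 11. It was the steadiest of the 4 genes within the fasted group, where its arrays spanned 0.12 log2 units, and the gap to the refed group was 0.45. The means were 7.01 ± 0.06 and 6.40 ± 0.12 (SD, n = 3), a difference of -0.61 (SE 0.08). Map3k6 thus had nearly the same difference as Slc10a6, but at 6.44 times its pooled SD. Of all features, 11.6% had a smaller pooled SD than Map3k6, against 64.9% for Cebpd, 76.5% for Slc10a6 and 92.2% for Gadd45g. The genes come from a list made on this contrast, so these shares are a description and no test.

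**Figure D2:**
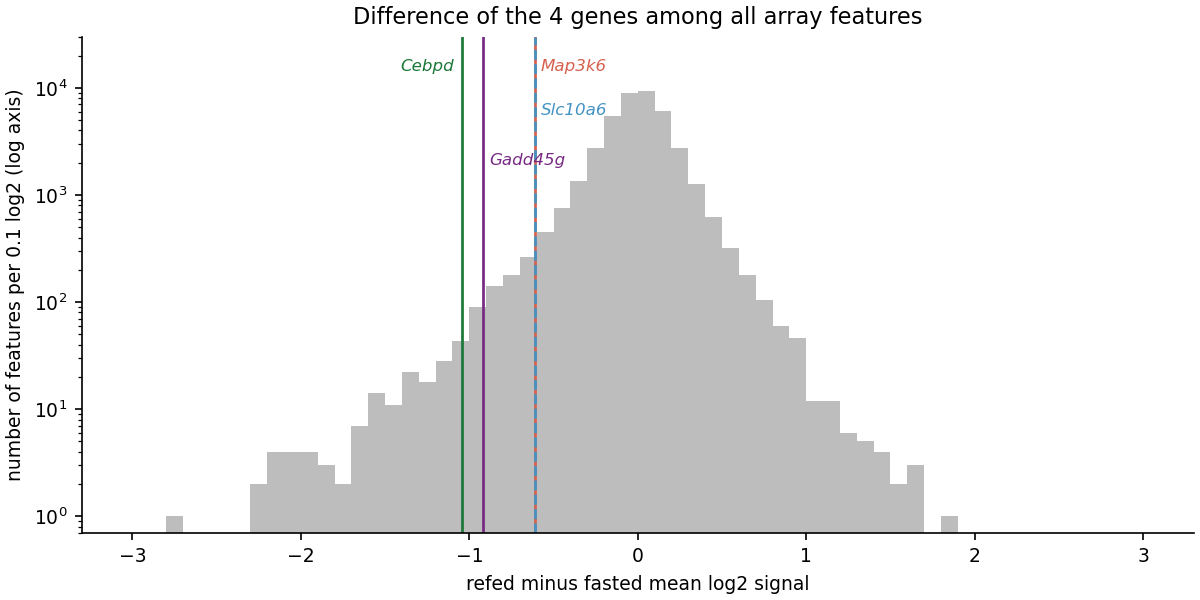
Number of array features (log axis) by the refed minus fasted difference of mean log2 signal, in steps of 0.1, with lines at the 4 genes. Cebpd at -1.04 and Gadd45g at -0.92 stand farther out in the lower tail than Map3k6 and Slc10a6, which lie together at -0.61; at least 140 features have a lower difference than any of them.

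Within the fasted group the 4 genes ordered the arrays alike. Fasted 1 was the highest, fasted 5 the next and fasted 3 the lowest for each of them. Of all features 14.8% had this order, and in 27.6% fasted 3 was the lowest. Fasted 3 stood from -0.07 (Map3k6) to -0.71 (Gadd45g) off its group mean, and fasted 1 from 0.05 (Map3k6) to 0.56 (Gadd45g) above it. The size of the deviations therefore differed widely between genes that shared their direction. The 4 values on an array come from the same RNA, and 3 arrays per group allow no correlation within a group.

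The refed arrays were not ordered alike. Refed 9 was the lowest for Cebpd, Gadd45g and Map3k6, at -0.28, -0.19 and -0.13 from the group mean, and it was the lowest in 32.1% of all features. For Slc10a6 refed 7 was the lowest instead, within a group that hardly varied. The highest refed array was number 11 for Cebpd, Map3k6 and Slc10a6 and number 7 for Gadd45g. The fasted SD exceeded the refed SD for Gadd45g and Slc10a6, and the reverse held for Cebpd and Map3k6.

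**Figure D3:**
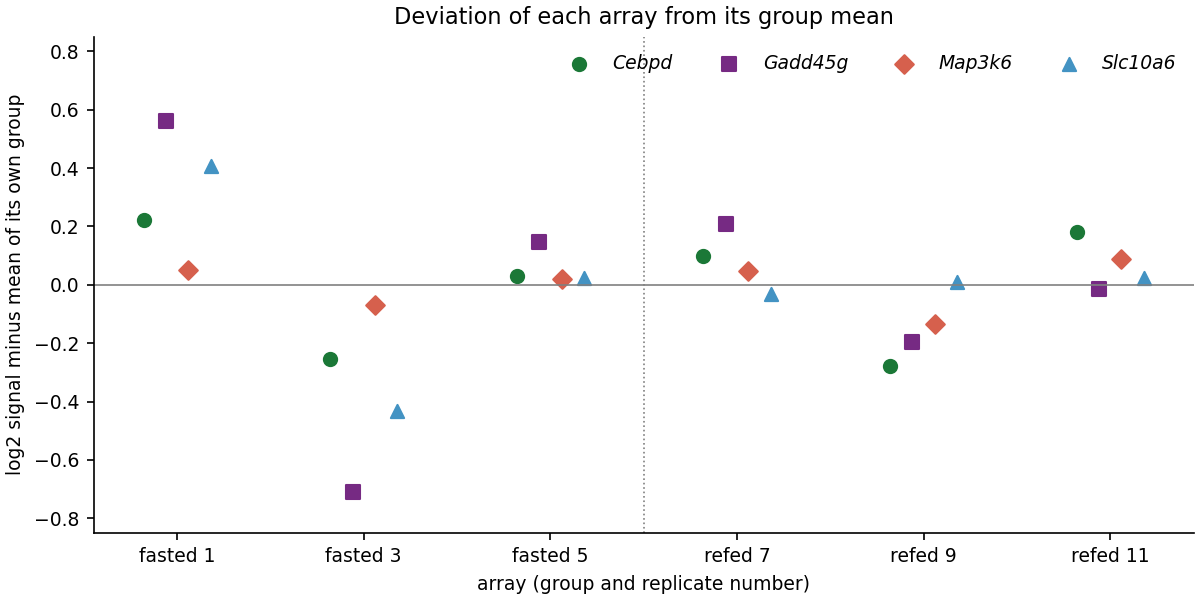
Log2 signal of each gene minus the mean of the array's own group, for the 6 arrays, with a symbol per gene. All 4 genes are above 0 on fasted 1 and fasted 5 and below 0 on fasted 3, with Gadd45g reaching 0.56 and -0.71, while the refed arrays show no common order.

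The genes whose pattern over the 6 arrays was most like that of each member were sought among the 22 other features that met 3 conditions: 1 feature per symbol, no predicted, clone or receptor-cluster name, and a mean above the median of all features, which the 4 genes also met. Likeness was the root mean square distance between log2 values, each gene centred on its own mean over the 6 arrays. All of these features come from the same list, which fixes much of the likeness. For Cebpd the nearest were Arrdc2 (0.11), Ms4a4a (0.15) and Arrdc3 (0.16). Arrdc2 and Arrdc3 code for alpha-arrestins, adaptors that direct membrane proteins to degradation, and Ms4a4a for a membrane protein of the MS4A family known from macrophages.

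For Gadd45g the nearest were Ms4a4a (0.20), Slc10a6 (0.25) and Arrdc2 (0.25), at larger distances than those of Cebpd. Slc10a6 was nearest to Ms4a4a (0.16), Arrdc2 (0.20) and Arrdc3 (0.22). Map3k6 was nearest to Trim63 (0.13), the ubiquitin ligase MuRF1 of the sarcomere, then to Ms4a4a (0.19) and Arrdc3 (0.20). By distance Ms4a4a was thus among the nearest 3 for each of the 4 genes, but by Pearson's correlation it was not for Map3k6, whose nearest were then Cebpd, Arrdc2 and Arrdc3 in place of Trim63, Ms4a4a and Arrdc3. By correlation Arrdc2 was among the nearest 3 for each of the 4 genes. Ms4a4a read 6.17, 5.49 and 5.89 on fasted arrays 1, 3 and 5, and 5.22, 4.83 and 5.16 on refed arrays 7, 9 and 11. Its refed mean of 5.07 lay near the median level of all features, 5.03, and whether it stands above background was not tested. Its arrays keep the fasted order of the 4 genes. Its groups do not overlap, which held for every feature compared here. None of the 9 macrophage markers listed for this tissue has a named feature, so a part of macrophage RNA in this likeness was not tested.

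Among the 4 genes themselves the distances were 0.22 for Map3k6 and Slc10a6, 0.25 for Gadd45g and Slc10a6, 0.25 for Cebpd and Map3k6, 0.26 for Cebpd and Gadd45g, 0.28 for Cebpd and Slc10a6, and 0.38 for Gadd45g and Map3k6. This order depends on the measure: by Pearson's correlation over the 6 arrays, which ignores the size of a difference, Cebpd and Map3k6 were the most alike of the 6 pairs, and Map3k6 and Slc10a6, the closest by distance, the least. The fasted order of the 4 genes was found in 11 of the 23 features that met the conditions, members included. Besides the members these were Arrdc2, Arrdc3, Chac1, Cish, Ddit4, Ms4a4a and Pfkfb3.

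**Figure D4:**
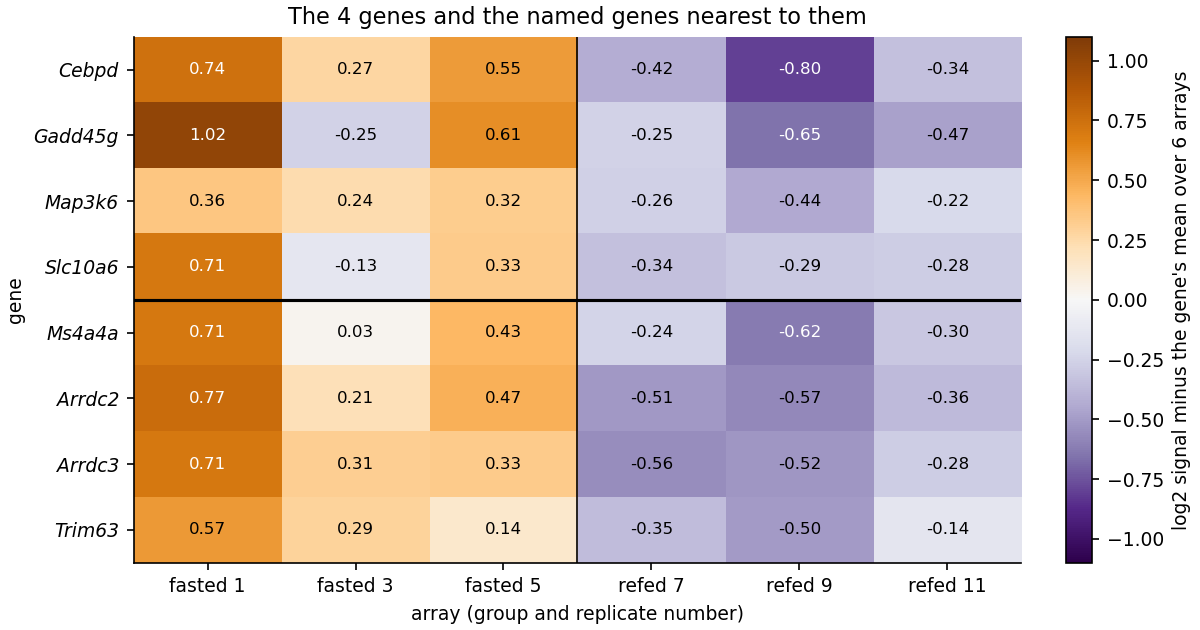
Log2 signal minus the gene's own mean over 6 arrays (colour and number) for the 4 genes, above the line, and the 4 named genes that were among the nearest 3 of any of them, below it. Fasted 3 is the palest fasted array for the members, at -0.25 for Gadd45g and -0.13 for Slc10a6 but 0.27 for Cebpd and 0.24 for Map3k6, and refed 9 is the lowest array for each gene shown but Slc10a6 and Arrdc3.

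Of 35 genes listed for the glucocorticoid response, 10 have a named feature, the 4 members among them, and the other 25 are not analysed here. The list of 35 was drawn up with earlier results of these data known, so the direction of its named genes is no test. All 10 were lower in refed muscle. They come from features chosen on this contrast, and 84 of the 134 named ones were lower. Of the 23 that met the conditions above, 18 were lower. Besides the members, the 10 genes of the glucocorticoid list included Depp1, a FoxO target, at a difference of -1.95 (SE 0.30). Ddit4, an inhibitor of mTORC1, was at -1.57 (SE 0.42). Arrdc2 followed at -0.97 (SE 0.17), Arrdc3 at -0.90 (SE 0.16), Angptl4, an inhibitor of lipoprotein lipase, at -0.84 (SE 0.29), and Trim63 at -0.66 (SE 0.16), all as refed minus fasted log2 signal. Map3k6 and Slc10a6 thus had the smallest differences of the 10, and Cebpd the third in size. The median over the 4 members was -0.77, against 0.0005 over all features. Taking the members from the authors' list fixed much of this gap in advance, so it is a description and no test.

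The relatives of the 4 genes are nearly all without a named feature. In the lists for the C/EBP family (7 genes), the GADD45 proteins and their partners (10), the stress-kinase cascade from MAP3K to p38 and JNK (40) and the SLC10 carriers with enzymes of steroid sulfates (10), the member itself is the 1 named gene of each. ASK1, MAP3K4, p38, JNK and the other GADD45 and C/EBP genes were therefore not analysed here. Of 24 genes listed for the IL6 and STAT3 response, Cebpd and Cish, an inhibitor of cytokine receptor signalling, have a named feature. Cish went the other way from Cebpd, with refed arrays higher by 0.82 on the log2 scale (SE 0.15). The fasted mean of Cish, 4.84, lay below the median level of all features, 5.03, and whether it stands above background was not tested.

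Transcripts of red blood cells differed between the groups too. Of 14 erythroid markers, Alas2, the erythroid enzyme of haem synthesis, and the beta globin Hbb-bt have a named feature, and both come from the same list. Their summed signal (linear scale) was 214 to 399 on the fasted and 124 to 201 on the refed arrays. Within the fasted group, array 1 was above array 5 both in red cell mean (7.16 and 6.70) and in the mean of the 4 genes (7.70 and 7.44). Fasted 3 stood apart from this, with the highest red cell mean, 7.61, and the lowest mean of the 4 genes among the fasted arrays, 7.02. In the refed group refed 9 was the lowest for both, at 5.91 and 6.44. With the red cell mean as a covariate the difference was -0.97 for Cebpd and -0.55 for Map3k6, a little smaller than without it, and -1.23 for Gadd45g and -0.85 for Slc10a6, larger than without it. The covariate differs between the groups in part because its genes were taken from the list.

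**Figure D5:**
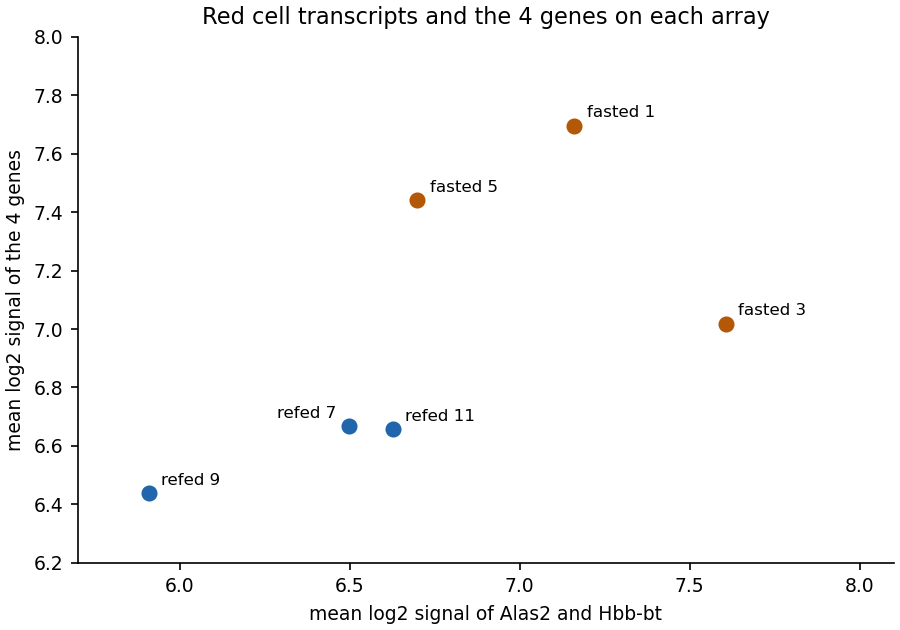
Mean log2 signal of the 4 genes against the mean log2 signal of Alas2 and Hbb-bt on each of the 6 arrays. Fasted 3 is farthest to the right, at 7.61, yet the lowest of the fasted arrays for the 4 genes, at 7.02, and refed 9 is the lowest array on both axes.

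Of the markers for the labelled tissue, 1 of 15 skeletal muscle genes has a named feature, the myogenic factor Myod1, at 7.06 ± 0.25 in fasted and 7.70 ± 0.14 in refed muscle (log2 signal, SD, n = 3). The other 14, and all markers listed for neutrophils, macrophages, adipocytes, endothelium and fibroblasts or tendon, are not analysed here, so the label could not be checked further. The authors' list states no threshold. Among its named features with lower refed signal the smallest change was 1.501-fold, a little under the 1.53-fold of Map3k6 and Slc10a6, and features just outside the list carry no symbol.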

How the data were processed

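The authors deposited log2 signals of 41345 features on 6 arrays, hybridised per the labels' protocols with biotin-labelled target from 300 ng of total RNA. The submitters' processing notes name Partek. No source used here gives the background correction, summarisation, normalization or genome build. Of the authors' deposited list only feature identifiers and gene symbols were used. Per the file headers it compares the refed with the fasted arrays and also further arrays, to which no label used here gives a group and which were not analysed here. Symbols were updated through RefSeq synonyms (5 changed).

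The members and gene lists were chosen with earlier results of these data known. Group means, SDs and differences were computed on the log2 values. The background fit used limma 3.58.1 in R 4.3.3 (lmFit, eBayes, no covariate, Benjamini-Hochberg adjustment over all features) and was tested on simulated data. SEs use the pooled SD. The named genes were the 4 members, for each the 3 named features nearest in pattern, the named erythroid markers, and the named genes sharing a list with at least 2 members. Genes named beyond this, such as Cish, Myod1 and those sharing the fasted order, were chosen after their values were seen. Alternatives covered normalization, centring, array weights, a filter on dim features, the variance prior, a red cell covariate and leaving out each array. The number of arrays limits the precision. Python 3.11.15 with matplotlib 3.10.9 drew the figures.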

Additional observations from a re-analysis of the deposited data

How the results depend on the processing

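The differences of the 4 genes and of their mean stayed negative in all 50 values over 10 alternatives, and none moved by more than its pooled SD. Where groups do not overlap, leaving out or weighting arrays cannot reverse a difference, so this is no sign of stability. Quantile normalization and median centring moved no difference by more than 0.016. Array weights gave -0.97 for Cebpd, -0.70 for Gadd45g, -0.59 for Map3k6 and -0.48 for Slc10a6. These weights were 1.54 for fasted 3, 0.67 for fasted 1 and 0.72 for fasted 5. The weighted differences thus lean on fasted 3, the lowest fasted array for each of the 4 genes. With 1 array left out in turn, the range was -1.17 to -0.90 for Cebpd, -1.27 to -0.64 for Gadd45g, -0.66 to -0.54 for Map3k6, -0.83 to -0.41 for Slc10a6 and -0.98 to -0.64 for their mean. Across all features the count at adjusted p under 0.05 was 0 under each alternative run, and the counts at unadjusted p under 0.05 ran from 663 to 1152 higher and from 973 to 1462 lower with 1 array left out. Restricted to features above the median level, these counts fell to 385 and 585, and 898 higher and 1024 lower features had groups without overlap, because fewer features were tested. With Pearson's correlation as the measure of likeness, 3 of the nearest 3 were shared for Gadd45g, 2 each for Cebpd and Slc10a6, and 1 for Map3k6, for which Trim63 and Ms4a4a gave way to Cebpd and Arrdc2. No paired analysis was possible because the fasted and refed groups share no replicate number.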
